A study of Homo sapiens with 10 samples.

Results

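The CHD proteins are remodelers that use ATP to move, evict or space nucleosomes, and they carry paired chromodomains next to a Snf2-type ATPase. *CHD3* and *CHD4* encode the alternative ATPases of the nucleosome-remodeling and deacetylase (NuRD) complex, which couples remodeling to histone deacetylation and is best known for transcriptional repression. The genes described here are *CHD1*, *CHD2*, *CHD3*, *CHD4*, *CHD6*, *CHD7*, *CHD8* and *CHD9*, chosen by their symbols. These 8 are called the CHD genes below, and the row *CHD5* is described with other Snf2-type ATPases. All 8 were present in both deposited count tables, which together hold 19695 gene symbols, and all 8 passed the filter on low counts in every comparison.

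The data come from T47D, an established human breast cancer cell line of the luminal, hormone receptor-positive type. RNA-seq was performed on 2 libraries for each of 3 groups, harvested 72 h after transfection with control siRNA, siRNA to *TRPS1* or siRNA to *CHD4*, and ChIP-seq with TRPS1 antibodies gave 1 list of 1844 peaks from 2 TRPS1 ChIP and 2 input libraries. TRPS1 is an atypical GATA factor with repressor activity, and the study asked whether it works through a NuRD complex that contains CHD4. Both knockdowns were compared with the same 2 control libraries, no rescue was included, and the sources used here do not state whether replicates were separate cultures, so p-values measure only the spread between these libraries.

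The knockdown agents are shown because every comparison below rests on them. The study lists 2 siRNAs against *CHD4*, 2 against *TRPS1* and a control siRNA, each of 19 nucleotides, written 5′ to 3′ with RNA letters. It does not say which siRNA of a pair was used for RNA-seq, and its RNA-seq methods name a *CHD4* shRNA where the sample labels name an siRNA.
CHD4 siRNA 1: cgggaguucaguaccaaua
CHD4 siRNA 2: gggcugcuuacuugaacau
TRPS1 siRNA 1: gucccuugaauguaguaaa
TRPS1 siRNA 2: gcacacagcugcuacaaau
Control siRNA: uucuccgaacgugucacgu

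The RNA-seq libraries held 10333138 to 14668358 counts each. Control siRNA replicate 1 stood apart from the other libraries. Over 13269 genes, its log2 CPM correlated with those of the other 5 libraries at r = 0.852 to 0.875, whereas the other pairs of libraries had r between 0.940 and 0.975. Genes are not independent replicates, so this is a description. All 10 luminal epithelial markers examined, among them *KRT8*, *EPCAM*, *ESR1* and *GATA3*, had at least 927 counts in each library. Their summed level lay between 12844 and 16131 CPM in the control libraries and between 5793 and 7966 CPM in the 4 knockdown libraries. The keratins *KRT8*, *KRT19* and *KRT18* were the highest of the 10 in the controls, with means of 4276, 2822 and 2173 CPM, and weigh most in this sum. Not all markers were lower. The mean of *EPCAM* was 98.5 CPM in controls, 127 with *TRPS1* siRNA and 119 with *CHD4* siRNA, and that of *FOXA1* was 277, 232 and 319. The defining markers *KRT5* (basal epithelium), *COL3A1* (fibroblast), *PTPRC* (leukocyte) and *PECAM1* (endothelium) never exceeded 3 counts. The part of the luminal marker difference in the values below was not tested.

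*CHD4*, the targeted gene, was 3.88-fold lower upon *CHD4* silencing. The libraries had 4099 and 3784 counts with control siRNA, 3151 and 4091 with *TRPS1* siRNA, and 1026 and 677 with *CHD4* siRNA. Scaled by TMM over the 6 libraries, these are 301 and 286 CPM (counts scaled to a common library total) for control, 303 and 269 for *TRPS1* siRNA, and 95.96 and 54.4 for *CHD4* siRNA. Both *CHD4* siRNA libraries thus lay far below the other 4, and they also differed from each other, whereas the control and *TRPS1* siRNA libraries overlapped. The mean was 294 ± 10.5 CPM in controls and 75.2 ± 29.4 CPM upon *CHD4* silencing (mean ± SD, n = 2 libraries). In bulk RNA, fewer cells with the transcript and less transcript per cell cannot be told apart.

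In the edgeR quasi-likelihood fit the log2 fold change of *CHD4* upon *CHD4* silencing was -1.96 (standard error 0.42, 95% interval -2.93 to -0.98). The unadjusted p was 0.00186 and the adjusted p 0.784. It ranked 34 from the lowest log2 fold change among the 12918 genes tested. At an unadjusted p under 0.05, 5.95% of all genes differed and 3.17% were lower, and *CHD4* was the only one of the 8 CHD genes to do so. No gene of the 12918 had an adjusted p under 0.05 in this fit, against 769 with an unadjusted one, 58 (0.449%) with edgeR's likelihood ratio test and 50 (0.387%) with DESeq2. *CHD4* was among those called by both other tools (adjusted p = 0.00768 and 0.00383 from edgeR's likelihood ratio test and DESeq2). Without control siRNA replicate 2 its adjusted p in the quasi-likelihood fit was 0.0120, in a fit that called 3874 of 12785 genes. Without *CHD4* siRNA replicate 2 its log2 fold change was -1.58 (unadjusted p = 0.0574 and adjusted p = 0.9997 from edgeR), and 1.80% of all genes and none of the CHD genes had an unadjusted p under 0.05. In fits with 1 library left in an arm, the spread comes from the other arm alone, and the lone library is assumed to vary like it.

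**Figure D1:**
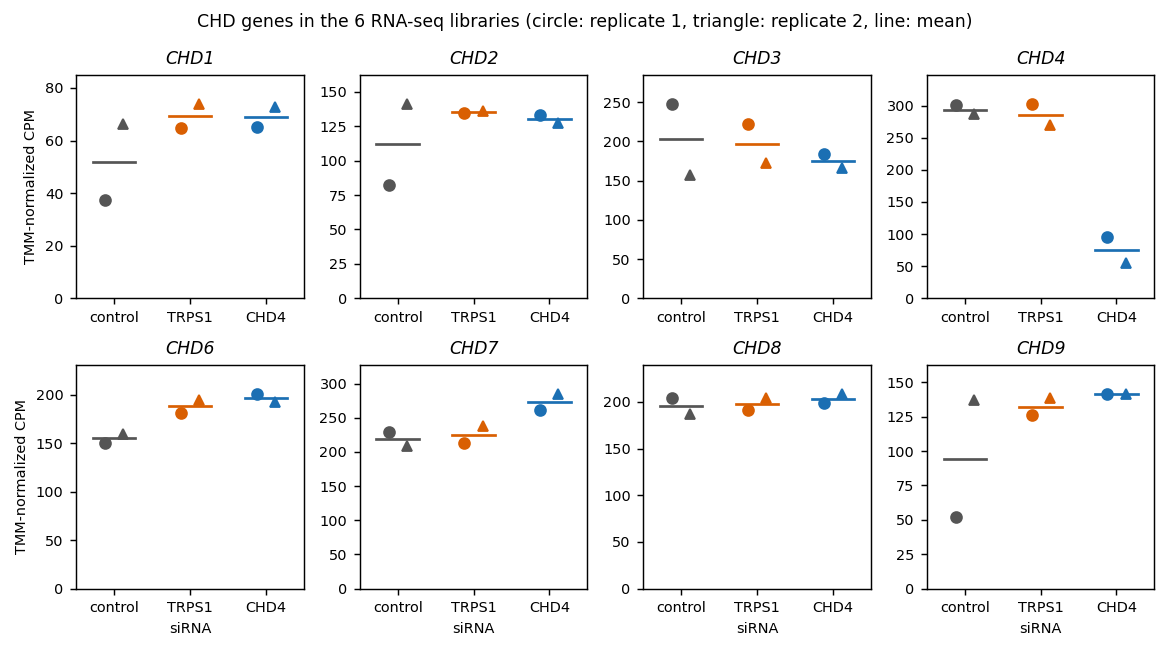
TMM-normalized CPM (y axis, from 0) of the 8 CHD genes in the libraries of control, TRPS1 and CHD4 siRNA (x axis), with circles for replicate 1, triangles for replicate 2 and lines for the mean of 2 libraries. CHD4 lies at 95.96 and 54.4 CPM with CHD4 siRNA and at 269 CPM or more in the other libraries, and CHD1, CHD2 and CHD9 are lowest in control replicate 1.

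*CHD3*, the closest paralog of *CHD4* and its alternative in NuRD, was not detectably higher when *CHD4* was silenced. It had 3376 and 2081 counts with control siRNA, 2306 and 2621 with *TRPS1* siRNA, and 1962 and 2062 with *CHD4* siRNA. The corresponding levels were 248 and 157 CPM, 222 and 172 CPM, and 184 and 166 CPM. Both *CHD4* siRNA values lay between the 2 control values. The log2 fold change of *CHD3* upon *CHD4* silencing was -0.21 with a 95% interval of -1.10 to 0.69 (adjusted p = 0.905 from edgeR). The upper bound leaves room for a rise of 0.69 on the log2 scale, so the fit does not show that *CHD3* stayed constant. Without control siRNA replicate 1 the value was 0.17, and without control replicate 2 it was -0.50, so its sign depended on the control library.

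The ratio of *CHD4* to *CHD3* counts within a library does not depend on how libraries are scaled. It was 1.21 (95% exact binomial interval 1.16 to 1.27) and 1.82 (1.72 to 1.92) in the control libraries, and 1.37 (1.29 to 1.44) and 1.56 (1.49 to 1.64) with *TRPS1* siRNA. With *CHD4* siRNA it was 0.523 (0.484 to 0.564) and 0.328 (0.301 to 0.358). These intervals cover counting error only. The 4 libraries without *CHD4* siRNA had more *CHD4* than *CHD3* counts and the 2 with *CHD4* siRNA had fewer, and the ratios of control and *TRPS1* siRNA overlapped. The transcripts differ in length, so a ratio of 1 does not mean equal numbers of molecules, and only its change between libraries is described.

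Of the counts of all 8 genes, *CHD4* took 23.1% and 21.3% in the control libraries and 21.1% and 18.9% with *TRPS1* siRNA. With *CHD4* siRNA it took 7.50% (95% exact binomial interval 7.06 to 7.95%) and 4.36% (4.05 to 4.70%). The other 7 genes summed to 1003 and 1057 CPM with control siRNA, 1132 and 1158 CPM with *TRPS1* siRNA, and 1184 and 1193 CPM with *CHD4* siRNA. Scaled by TMM, the groups did not overlap in this sum, which was higher in both knockdowns than in the controls. Such a separation from control is common, found for 39.8% of all single genes upon *CHD4* silencing and 44.1% upon *TRPS1* silencing. The sum was not computed with other scalings. With 2 libraries against 2, an exact two-sided permutation test cannot give a p below 0.3333, so the sum was not tested.

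**Figure D2:**
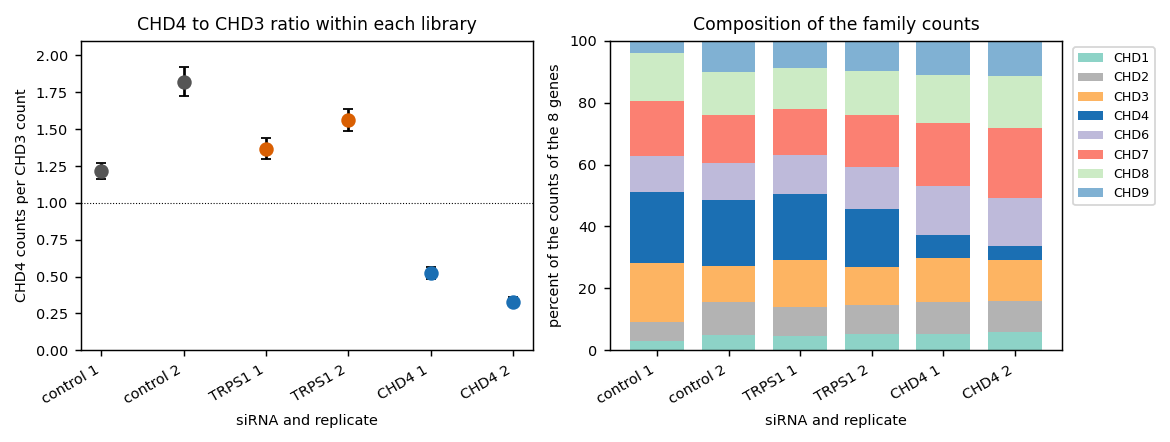
Left, counts of CHD4 per count of CHD3 within each of the 6 libraries (y axis), with 95% exact binomial intervals for counting error; the dotted line marks a ratio of 1. Right, the percentage of the summed counts of the 8 CHD genes that each gene takes in each library, where CHD4 falls to 7.50% and 4.36% with CHD4 siRNA.

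The remaining paralogs are grouped by subfamily. *CHD1* and *CHD2* encode remodelers with a DNA-binding domain. CHD1 binds histone H3 trimethylated at lysine 4 through its chromodomains and acts at transcribed genes, and *CHD2* is known as a gene of epileptic encephalopathy. *CHD1* had 37.4 and 66.5 CPM with control siRNA, 64.6 and 74.0 with *TRPS1* siRNA, and 65.3 and 72.6 with *CHD4* siRNA. *CHD2* had 82.5 and 141 CPM with control siRNA, 134 and 136 with *TRPS1* siRNA, and 133 and 127 with *CHD4* siRNA. In both genes control replicate 1 was the lowest library, whereas control replicate 2 lay within the range of the knockdown libraries for *CHD1* and above it for *CHD2*.

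Upon *CHD4* silencing the log2 fold change was 0.42 (95% interval -0.58 to 1.41) for *CHD1* and 0.22 (-0.72 to 1.17) for *CHD2*. Upon *TRPS1* silencing it was 0.42 (-0.55 to 1.39) for *CHD1* and 0.28 (-0.64 to 1.19) for *CHD2*. Without control replicate 1 these became 0.071 and -0.10 upon *CHD4* silencing, and 0.068 and -0.057 upon *TRPS1* silencing. Against control replicate 1 alone, *CHD1* had 0.89 in either knockdown (adjusted p = 0.0487 for *CHD4* siRNA and 0.0136 for *TRPS1* siRNA from edgeR). *CHD2* had 0.67 upon *CHD4* silencing (adjusted p = 0.0715) and 0.72 upon *TRPS1* silencing (adjusted p = 0.0180) in the same fits. That control library is the one that stands apart, and these fits called 3874 of 12785 genes for *CHD4* siRNA and 6070 of 12805 for *TRPS1* siRNA, so the calls are not particular to the CHD genes.

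*CHD6*, *CHD7*, *CHD8* and *CHD9* belong to the subfamily of large CHD proteins. CHD7 is the product of the gene mutated in CHARGE syndrome, and CHD8 binds beta-catenin and is a recurrent gene in autism. *CHD6* had 150 and 160 CPM with control siRNA, 181 and 195 with *TRPS1* siRNA, and 201 and 192 with *CHD4* siRNA. All 4 knockdown libraries lay above both control libraries, and the knockdowns overlapped each other. Its log2 fold change was 0.35 (95% interval -0.46 to 1.16) upon *CHD4* silencing and 0.28 (-0.46 to 1.03) upon *TRPS1* silencing. Against a single control library the values stayed between 0.32 and 0.40 for *CHD4* siRNA and between 0.24 and 0.33 for *TRPS1* siRNA. Neither comparison passed the test (adjusted p = 0.828 and 0.773 from edgeR).

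*CHD7* had 229 and 208 CPM with control siRNA, 213 and 238 with *TRPS1* siRNA, and 261 and 285 with *CHD4* siRNA. Both *CHD4* siRNA libraries lay above the other 4, which overlapped. The log2 fold change of *CHD7* was 0.33 (95% interval -0.47 to 1.13) upon *CHD4* silencing and 0.047 (-0.70 to 0.80) upon *TRPS1* silencing. In the direct comparison of both knockdowns, which needs no control library, it was 0.28 higher with *CHD4* siRNA (-0.082 to 0.65, unadjusted p = 0.106 and adjusted p = 0.433 from edgeR). With a replicate block it was 0.29 (unadjusted p = 0.0174 and adjusted p = 0.0634), in a fit where 35.1% of all genes had an unadjusted p under 0.05.

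*CHD8* had the narrowest range of CPM over the 6 libraries among the 8 genes. It had 204 and 188 CPM with control siRNA, 192 and 204 with *TRPS1* siRNA, and 199 and 209 with *CHD4* siRNA. All groups overlapped. Its log2 fold change was 0.064 (95% interval -0.74 to 0.87) upon *CHD4* silencing and 0.021 (-0.72 to 0.77) upon *TRPS1* silencing, so changes below about these bounds could not be detected.

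*CHD9* had the largest log2 ratio between the control libraries among the 8 genes, -1.40 for replicate 1 over replicate 2. It had 707 and 1811 counts, or 51.9 and 137 CPM, with control siRNA, against 126 and 139 CPM with *TRPS1* siRNA and 142 in both libraries with *CHD4* siRNA. Control replicate 1 was far below the other 5 libraries, which spanned only 126 to 142 CPM. Of all genes, 81.5% had a smaller difference between the control libraries, against 5.31% for *CHD4* and 8.74% for *CHD8*. The log2 fold change of *CHD9* was 0.59 (95% interval -0.58 to 1.76) upon *CHD4* silencing and 0.49 (-0.71 to 1.69) upon *TRPS1* silencing. Without control replicate 1 it was 0.066 and -0.042. Without control replicate 2 it was 1.46 and 1.35 (adjusted p = 0.0117 and 0.00175 from edgeR), in the fits with a single control library that called 3874 of 12785 and 6070 of 12805 genes.

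**Figure D3:**
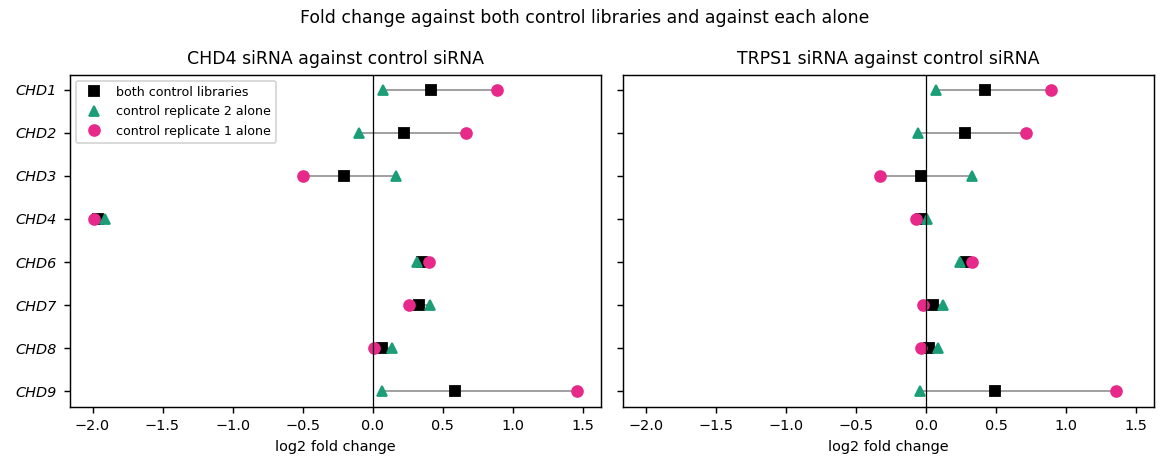
Log2 fold change (x axis) of each CHD gene upon CHD4 silencing (left) and TRPS1 silencing (right), against both control libraries (squares), against control replicate 2 alone (triangles) and against control replicate 1 alone (circles). CHD9 moves from 0.066 to 1.46 and from -0.042 to 1.35 with the control library, whereas CHD4, CHD6, CHD7 and CHD8 move less. Of these, CHD4, CHD7 and CHD8 lie near 0 upon TRPS1 silencing and turn sign with the control library.

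Counted over the 7 paralogs of *CHD4*, 6 had a log2 fold change above 0 upon *CHD4* silencing, with a median of 0.33 against -0.023 over all genes tested. The same count and a median of 0.28 against -0.024 were found upon *TRPS1* silencing, with the same control libraries. None of the 7 had an unadjusted p under 0.05 in either comparison, and their adjusted p lay between 0.806 and 0.973 upon *CHD4* silencing and between 0.748 and 0.985 upon *TRPS1* silencing in edgeR. Without control replicate 1 the medians were 0.14 against 0.012 over all genes upon *CHD4* silencing, and 0.086 against 0.017 upon *TRPS1* silencing. With library totals in place of TMM the median of all genes was 0.11 upon *CHD4* silencing and 0.10 upon *TRPS1* silencing. Each of the 7 paralogs rose with it. *CHD7*, the paralog at the median upon *CHD4* silencing, was 0.46 with library totals. *CHD2*, the paralog at the median upon *TRPS1* silencing, was 0.40. The distance of such values from 0 thus depends on the scaling, whereas their position relative to all genes changed little.

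The groups did not overlap for 4 of the 8 genes upon *CHD4* silencing, with *CHD4* lower and *CHD6*, *CHD7* and *CHD9* higher. This was the case for 39.8% of all genes, 19.7% lower and 20.1% higher. *CHD9* cleared the higher control library by a small margin, at 142 against 137 CPM. Upon *TRPS1* silencing only *CHD6* had groups that did not overlap, whereas 44.1% of all genes did and 22.8% were higher in this way.

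Upon *TRPS1* silencing the level of *CHD4* itself was about that of the controls, with a log2 fold change of -0.034 (95% interval -0.77 to 0.70, adjusted p = 0.974 from edgeR). With upper-quartile factors or library totals it was 0.096 or 0.093, beside a median of all genes that moved from -0.024 to 0.10 under either scaling. None of the 8 CHD genes had an unadjusted p under 0.05 in this comparison, where 6.98% of all genes did. No gene had an adjusted p under 0.05 in the edgeR quasi-likelihood fit, against 902 with an unadjusted one, 34 (0.263%) with edgeR's likelihood ratio test and 37 (0.286%) with DESeq2. The targeted gene *TRPS1* had 19723 and 30078 counts with control siRNA, 12160 and 10996 with *TRPS1* siRNA, and 26252 and 19786 with *CHD4* siRNA. In the same order, the TMM-scaled levels were 1448 and 2274 CPM, 1169 and 723 CPM, and 2455 and 1591 CPM. *TRPS1* siRNA replicate 1 was thus closer to control replicate 1 in CPM than in counts. In log2 units *TRPS1* differed from control by -0.97 with its own siRNA (standard error 0.39, adjusted p = 0.659 from edgeR) and by 0.13 with *CHD4* siRNA (0.40, adjusted p = 0.946). Each targeted gene was lower in both libraries of its own siRNA than in every other library, and the sizes of these drops were not compared by a test.

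The direct comparison of *CHD4* siRNA with *TRPS1* siRNA had narrower intervals, since it leaves out the control libraries. *CHD4* was 3.78-fold lower with *CHD4* siRNA, a log2 fold change of -1.92 (standard error 0.29, 95% interval -2.63 to -1.21, unadjusted p = 0.000592 and adjusted p = 0.0941 from edgeR). The other 7 genes lay between -0.16 (*CHD3*) and 0.28 (*CHD7*). For *CHD3* the interval was -0.59 to 0.27, for *CHD6* -0.27 to 0.42, and for *CHD9* -0.24 to 0.45. *CHD1* differed by -0.0013 (-0.40 to 0.39). At an unadjusted p under 0.05, *CHD4* was the only one of the 8 CHD genes, where 15.4% of all 13143 genes passed and 7.33% were lower. The row *CHD5*, described below with the other Snf2-type ATPases, also passed and was higher. The groups did not overlap for *CHD4*, which was lower as were 23.8% of all genes, or for *CHD7* and *CHD9*, which were higher as were 23.3%. No gene had an adjusted p under 0.05 in the quasi-likelihood fit, against 2023 with an unadjusted one, 570 (4.34%) with edgeR's likelihood ratio test and 456 (3.47%) with DESeq2, and *CHD4* was called by both of the latter.

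**Figure D4:**
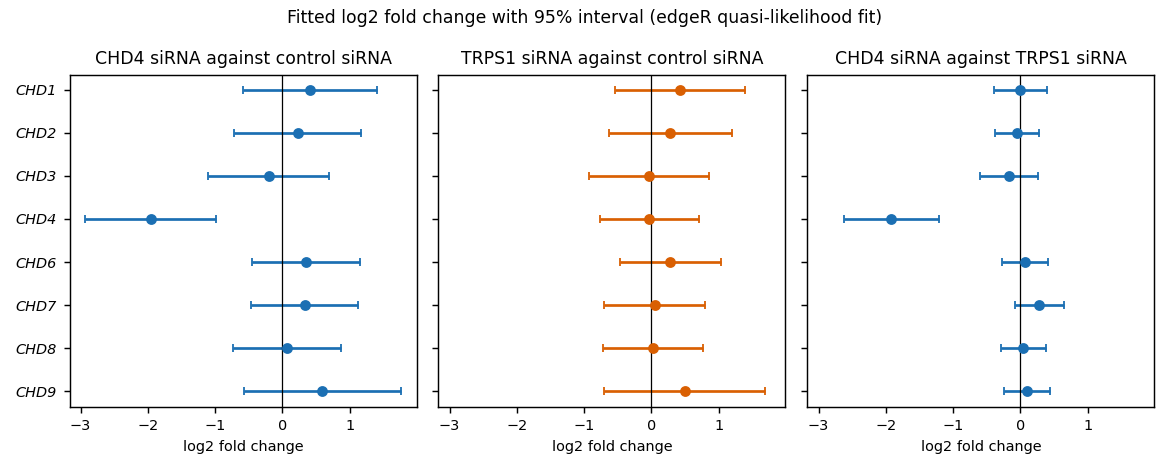
Fitted log2 fold change (x axis) of each CHD gene with its 95% interval in the 3 comparisons, each of 2 against 2 libraries. The interval of CHD4 lies below 0 in both comparisons of CHD4 siRNA, and those of the other 7 genes include 0 throughout.

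The genes most like *CHD4* in pattern were sought among 11482 genes over 2 CPM in every library, by the Pearson correlation of log2 CPM over the 6 libraries. The 5 highest were *SENP2* (a SUMO protease, r = 0.998), *ANAPC13* (a subunit of the anaphase-promoting complex, r = 0.996), *MTMR4* (a phosphoinositide phosphatase, r = 0.990), *PTGES* (a prostaglandin E synthase, r = 0.988) and *CRISPLD2* (a secreted protein, r = 0.985). *SENP2* had between 212 and 221 CPM in the 4 libraries without *CHD4* siRNA and 131 and 109 CPM with it. *PTGES* had between 128 and 163 CPM in the former and 58.9 and 45.7 CPM in the latter. The pattern is dominated by the drop in the 2 *CHD4* siRNA libraries, which the points share. With Spearman's rho in place of r, 7 genes reached a rho of 1 and none of these 5 was among them.

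Related genes were described from 2 lists. Of 22 other Snf2-type ATPases, none had an unadjusted p under 0.05 against control siRNA in either knockdown, with a median log2 fold change of -0.028 upon *CHD4* silencing and 0.14 upon *TRPS1* silencing. In the direct comparison 6 of the 22 were lower with *CHD4* siRNA at an unadjusted p under 0.05 and 1 was higher, beside 7.33% and 8.07% of all genes. The lower ones included the SWI/SNF ATPase *SMARCA2* (-0.44), the ISWI ATPase *SMARCA1* (-0.44), *RAD54L2* (-0.44) and the ubiquitin ligase *SHPRH* (-0.39). Against control siRNA, *SMARCA1* was 0.36 with *CHD4* siRNA and 0.80 with *TRPS1* siRNA, and *SHPRH* was -0.069 and 0.32. In the same order, *SMARCA2* was -0.36 and 0.085, and *RAD54L2* was -0.34 and 0.11. A lower value in the direct comparison is thus not by itself a drop below control. The higher one was *CHD5*, a NuRD ATPase related to *CHD3* and *CHD4* (0.68, adjusted p = 0.192 from edgeR). The row *CHD5* had 996 and 573 counts with control siRNA, 433 and 716 with *TRPS1* siRNA, and 660 and 988 with *CHD4* siRNA, and in CPM the control values overlapped those of either knockdown. RefSeq also gives this symbol as a synonym of *CHD6* and of *GET1*, and the counted gene could not be checked further.

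Of 21 partners of CHD proteins, mainly NuRD subunits, 2 were lower upon *CHD4* silencing at an unadjusted p under 0.05, the methyl-CpG-binding subunit *MBD2* (-0.99) and the heterochromatin protein *CBX3* (-1.50). Of all genes, 3.17% were lower in this way. *CBX3* had 124 and 412 CPM with control siRNA and 111 and 77.4 CPM with *CHD4* siRNA. The control libraries thus differed widely, and control replicate 1 lay near the *CHD4* siRNA libraries. Upon *TRPS1* silencing 1 of the 21 partners was lower, where 3.97% of all genes were. This was *GATAD2A*, which encodes the subunit that joins CHD4 to the rest of NuRD. It had 1280 and 668 counts with control siRNA, 210 and 263 with *TRPS1* siRNA, and 758 and 1020 with *CHD4* siRNA. Both *TRPS1* siRNA libraries were below the other 4. Against control, *TRPS1* siRNA gave groups that did not overlap for 10 of the 21 partners, 8 lower and 2 higher, beside 44.1% of all genes. The log2 fold change of *GATAD2A* was -1.94 (standard error 0.44, unadjusted p = 0.00368 and adjusted p = 0.659 from edgeR), and it was 2.04 higher with *CHD4* siRNA than with *TRPS1* siRNA (standard error 0.18, adjusted p = 0.0903). In that direct comparison *CBX3* (-1.27) and *MTA2* (-0.35) were lower and the partner *RBBP5* (0.51) was higher at an unadjusted p under 0.05. The median log2 fold change of the partners was -0.27 upon *CHD4* silencing and -0.23 upon *TRPS1* silencing.

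Among the 8 CHD genes, *CHD9* alone held a TRPS1 peak of the deposited list. Positions are those of hg38 for the peaks and of RefSeq on GRCh38.p14 for the genes. With gene spans extended by 5 kb on either side, 1 of the 8 genes held a TRPS1 peak, and 5.75% of all 20037 protein-coding genes did. Long genes hold peaks more often, and 152 of the 1270 protein-coding genes that span 150 to 300 kb, as *CHD6*, *CHD7* and *CHD9* do, held one. The list has no score and was made once for all ChIP libraries, so no peak has a replicate error, and whether the replicates were pooled is not given in the sources used here.

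The peak in *CHD9* lies on chromosome 16 from 53099485 to 53099715, and *CHD9* spans 53054991 to 53327497, or 272.5 kb. The peak is 231 bp wide, and 19.1% of all peaks were narrower. The RefSeq promoter table used here lists 4 start sites for *CHD9*. The centre of the peak was 44.6 kb downstream of the first of them and 31.4 kb upstream of the second, so no listed start site of *CHD9* lay within 5 kb. Whether the peak falls in an exon or an intron was not analysed here. *CHD9* had a log2 fold change of 0.49 upon *TRPS1* silencing that rested on control replicate 1, as described above.

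**Figure D5:**
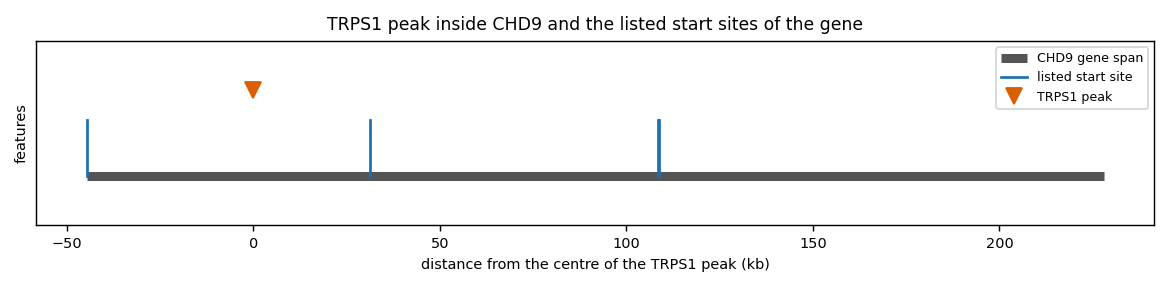
Distance in kb from the centre of the TRPS1 peak (x axis) to the ends of CHD9 (grey bar) and to its 4 listed start sites (blue lines, of which the last pair overlap at this scale). The peak lies between the first and second start site, at 44.6 and 31.4 kb.

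The promoters were searched for the consensus GATA element, since TRPS1 recognizes GATA sequences. The letters searched were AGATAA, the form AGATAG, the form TGATAA and the form TGATAG on both strands, in windows from 250 bases before to 50 after the start sites listed in a RefSeq promoter table (GRCh38.p14). The table does not hold every start of these genes, and for *CHD3*, *CHD4* and *CHD8* the listed site lies inside the gene span. A match occurred in 2 of the 9 promoters listed for 6 of the CHD genes, and in 25.0% of all 35116 promoters. The listed windows of *CHD1*, *CHD2*, *CHD4* and *CHD8* held none, and *CHD6* and *CHD7* had no entry. The surroundings of both matches are shown because they are the only ones in the listed windows, 5′ to 3′ on the plus strand, which is the strand of both genes, with the match in capitals.
CHD3, chr17:7888571-7888630: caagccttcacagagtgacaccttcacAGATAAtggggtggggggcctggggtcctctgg
CHD9, the start site at 53207965, chr16:53207715-53207774: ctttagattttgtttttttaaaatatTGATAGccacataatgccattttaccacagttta
The match of *CHD3* begins 191 bases before the start site and that of *CHD9* 224 bases before it. Neither promoter had a TRPS1 peak within 5 kb. The nearest peak to *CHD3* was 140.0 kb away, and the *CHD9* peak lay 108 kb upstream of the start site with the match. A match is a description of letters and not a binding site.

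The other 7 genes had no peak in or within 5 kb of their span. The nearest peak was 20.6 kb from *CHD8* (chromosome 14, 21385199 to 21456123) and 30.3 kb from *CHD2* (chromosome 15, 92900324 to 93027996). It was 61.5 kb from *CHD6* (chromosome 20, 41402083 to 41618377) and 80.2 kb from *CHD1* (chromosome 5, 98853985 to 98929007). *CHD3* (chromosome 17, 7884796 to 7912755) and *CHD4* (chromosome 12, 6570082 to 6607379) were 140.0 and 244 kb from the nearest peak. For *CHD7* (chromosome 8, 60678740 to 60868028) the distance was 2140 kb. RefSeq places the lncRNA gene *CHD4-AS1* over *CHD4* and the protein-coding gene *NAA38* over *CHD3*. Whether the counting used strand is not given in the sources used here, so reads of overlapping genes cannot be told apart.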

How the data were processed

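According to the methods, the authors trimmed the reads, used STAR for the RNA-seq alignment and HTSeq 0.9.0 for counting by gene symbol, and the deposited counts are not normalized. ChIP-seq reads were aligned with BWA 0.7.12-r1039 and peaks called with MACS2 2.1.1. The build hg38 is from the submitters' processing notes, and the annotation is not given in the sources used here. Tables were joined by symbol, and the shared control values were equal in both. A symbol absent from a table was set to 0 in it.

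Genes that exceeded 2 CPM in 2 or more compared libraries were scaled with TMM and tested with the quasi-likelihood F-test of edgeR 4.0.16 (R 4.3.3), with Benjamini-Hochberg adjustment over all genes, an adjusted p under 0.05 as the call and no covariates. Each standard error was derived from the log2 fold change and the square root of its F statistic, as their quotient, and 95% intervals use the degrees of freedom of that test. Levels printed as CPM are from TMM over all 6 libraries. The fit was also run on simulated counts, in which all libraries shared a mean profile and a dispersion apart from the changes set. Those counts held no library that stands apart like control replicate 1, so they do not show how the fit handles it. A count of 3, taken as the floor, is 0.197 to 0.288 CPM. Levels of the CHD genes were not ranked against each other, because transcript lengths were not used here. The shares and sums over genes and the order of the luminal markers are not corrected for length.

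The alternatives were edgeR's likelihood ratio test, DESeq2 1.42.0, RLE and upper-quartile factors, library totals, other filters, all 6 libraries in 1 fit, a replicate block and leaving out each library. The named genes are the 8 members, *TRPS1*, the 5 genes most like *CHD4*, and list genes with an unadjusted p under 0.05, at most the 4 of largest fold change per direction. Members, lists and tests were chosen with earlier results of these data known. Sequences are from RefSeq (GRCh38.p14) and the study's list of siRNAs. Script versions were Python 3.11.15 and matplotlib 3.10.9.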

Additional observations from a re-analysis of the deposited data

How the results depend on the processing

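With 2 libraries a group and control replicate 1 apart from the rest, intervals of the CHD genes against control siRNA are wide, and transcript levels say nothing of protein. Nothing states that equal replicate numbers share a batch. The correlation of the replicate 1 deviations was r = 0.61 between *TRPS1* and *CHD4* siRNA, 0.044 between control and *TRPS1* siRNA and 0.0077 between control and *CHD4* siRNA. No peak score was at hand for a stricter peak list, and no transcript length for levels between genes, so these alternatives were not run.

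The count of genes with an adjusted p under 0.05, 0 in each edgeR quasi-likelihood fit, was 58 (*CHD4* siRNA against control), 34 (*TRPS1* siRNA against control) and 570 (direct comparison) with the likelihood ratio test, and 50, 37 and 456 with DESeq2. With a replicate block it was 44, 32 and 3372, and without a filter 111 for *CHD4* siRNA and 424 for the direct comparison. Leaving out a library gave 0 to 3874, 0 to 6070 and 0 to 103. The number of CHD genes with an unadjusted p under 0.05 ranged from 0 to 4 (*CHD4* siRNA) and 0 to 3 (*TRPS1* siRNA) on leaving out a library. The highest counts came without control replicate 2, where 5755 of 12785 and 7114 of 12805 genes had such a p. It was 2 (*CHD4* and *CHD7*) in the direct comparison with a replicate block, where 35.1% of all genes did.

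*CHD4* against control had log2 fold changes of -1.96 with the likelihood ratio test, -1.96 with DESeq2, -1.97 without a filter and -2.01 with a replicate block, each with an adjusted p under 0.05, and -2.40 to -1.58 on leaving out a library. In the direct comparison these were -1.92, -1.92, -1.92, -1.97 and -2.39 to -1.55. Upon *TRPS1* silencing *CHD4* was 0.096 with upper-quartile factors, 0.093 with library totals and 0.021 with over 2 CPM in every library, and ranged from -0.10 to 0.061 on leaving out a library. Under the same settings *CHD3* was 0.099, 0.091 and 0.021. Upper-quartile factors and library totals moved the median of all genes there from -0.024 to 0.10, about the values of *CHD4* and *CHD3* under them. With over 2 CPM in every library the median of all genes was -0.028. *CHD8* was -0.0043 without a filter. In the direct comparison *CHD1* was 0.0018 with DESeq2, 0.0020 with RLE factors and 0.00034 with a replicate block. On leaving out a library, the sign also turned upon *CHD4* silencing for *CHD2* (-0.10 to 0.67) and *CHD3* (-0.50 to 0.17), and upon *TRPS1* silencing for *CHD2* (-0.057 to 0.72), *CHD3* (-0.33 to 0.33), *CHD7* (-0.024 to 0.14), *CHD8* (-0.040 to 0.086) and *CHD9* (-0.042 to 1.35). In the direct comparison it turned for *CHD1* (-0.10 to 0.12), *CHD3* (-0.32 to 0.018) and *CHD8* (-0.0067 to 0.11). The cause of the turns in sign was not tested. Of the 6 CHD genes with a listed start site, 0 had a peak within 5 kb of one and 3 within 50 or 100 kb (3.16%, 10.5% and 17.9% of 15843 protein-coding genes with a listed site), against 1 of 8 by gene span. For the 7 paralogs, 247 of 273 alternative values kept the direction and the side of the threshold, 21 turned sign and 5 passed the threshold.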
